A study of Sus scrofa with 10 samples.

Results

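Simple epithelial keratins are the intermediate filament proteins of single-layered epithelia, and they were examined here together with markers of duct epithelium in pig (Sus scrofa) testis tissue rebuilt from dissociated cells. The set was fixed by name as KRT7, KRT8, KRT18, KRT19, EPCAM, PAX8, PAX2 and MUC1, and 7 of the 8 genes had a row among the 27376 rows of the count table. PAX8 had no row under that name and was not analysed here. GF grafts (4 libraries) came from germ cells injected together with testicular fibroblasts, and FO grafts (4 libraries) from testicular fibroblasts alone. In both, primary pig cells were placed with Matrigel in the dorsal skin of a mouse that the labels call SKID and the tissue was taken after 6 months, so mouse host cells may lie in the tissue while counts are on pig genes. Control testis (2 libraries) is titled 5D, a code of unstated meaning, so its age and treatment are not known here. Its labels repeat the cell type and growth fields of the grafts. No genotype or strain is given. The labels do not say that libraries of a group came from separate animals, so p-values measure the spread between libraries, which may be technical.

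Keratin filaments are built from pairs of a type II and a type I chain. KRT7 and KRT8 are type II chains and KRT18 and KRT19 are type I chains. In mammalian testis, simple keratins are known from immature Sertoli cells, the rete testis, the excurrent ducts and the mesothelium over the organ. EPCAM is an adhesion protein of epithelial cells, MUC1 a mucin of their apical surface, and PAX2 and PAX8 are transcription factors needed, in mouse, for the Wolffian duct and the kidney.

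The libraries held between 2915534 and 7013911 counts, and GF 3 and GF 4 held the fewest. The summed level of 5 skeletal muscle genes was 151 CPM (counts scaled to library size) in GF 3 and 611 CPM in FO 1, while the remaining 8 libraries had 1.32 to 5.93 CPM. The tests between GF and FO grafts were repeated without GF 3 and GF 4, and without FO 1 and GF 3. Both choices were made from earlier results of these data. QuantSeq counts the 3' ends of transcripts, so counts were not divided by gene length. Set against the label, the genes with appreciable counts were 3 keratins, KRT8, KRT7 and KRT19. KRT18, EPCAM, MUC1 and PAX2 had at most 30 counts in any library, and were at or near 0 in all 3 groups. In bulk tissue, fewer cells of a type and less RNA per cell cannot be told apart.

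KRT8 was lower in GF grafts than in FO grafts, and lower in GF grafts than in control testis. KRT7 and KRT19 were higher in both kinds of graft than in control testis, and neither passed the test between GF and FO grafts. KRT18, EPCAM, MUC1 and PAX2 were too low for the test, except EPCAM in the comparisons with control testis, where it was not called. Between GF and FO grafts, 3 of the 7 genes had enough counts for the test, and 1 was called, against a background of 30.5% of the 13782 genes tested. The call was in the lower direction, in which 13% of all tested genes were called, and no gene of the set was higher, against 17.6% of all tested genes. The share of tested genes without overlap between the groups was 36%, and 1 of the 3 was of that kind. Their median log2 fold change was -0.66, beside -0.02 over all genes tested.

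**Figure D1:**
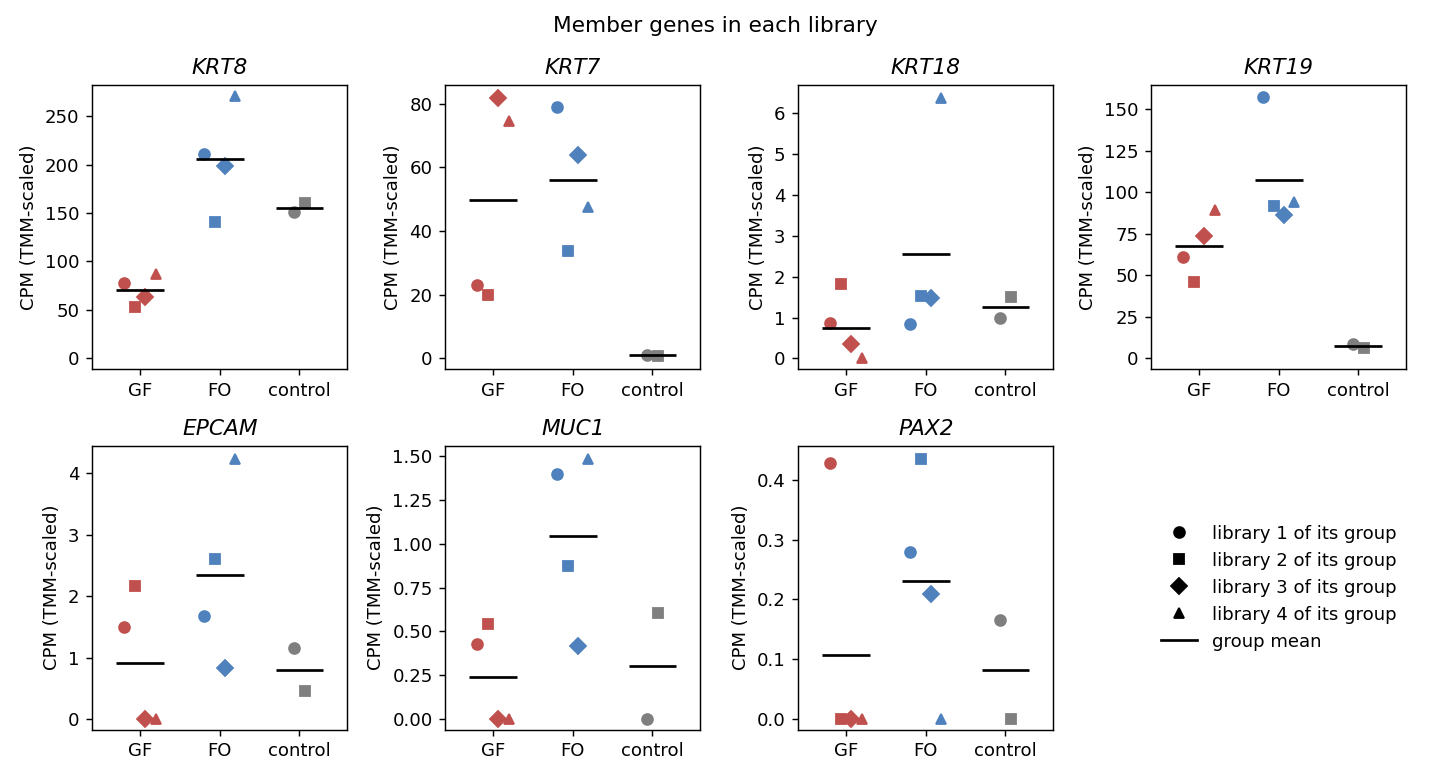
Level in CPM of each of the 7 measured genes in each library (points, with the marker giving the library's number in its group) and group means (lines), for GF grafts, FO grafts and control testis; each panel has its own axis. The 4 GF libraries lie below the 4 FO libraries for KRT8, while KRT7 and KRT19 are far lower in the 2 control libraries than in the grafts.

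KRT8, the type II chain of the earliest simple epithelia, lies on chromosome 5 (18172423 to 18180277, RefSeq annotation of Sscrofa11.1). It had 77.6, 53.1, 63.5 and 87.1 CPM in the GF libraries, against 211, 141, 198 and 271 CPM in the FO libraries. The control libraries had 151 and 160 CPM. Every GF library was below every FO and control library, and both control libraries fell inside the FO range. KRT8 averaged 70.3 ± 15.0 CPM in GF grafts and 205 ± 53.4 CPM in FO grafts (SD, n = 4 each). It fell in GF grafts relative to FO grafts by 1.54 ± 0.26 on the log2 scale (SE, 95% interval -2.11 to -0.98), which is 2.92-fold lower, with an adjusted p of 0.00137 in edgeR's quasi-likelihood test with Benjamini-Hochberg adjustment. It ranked 663 by p among all genes tested.

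KRT8 averaged 155 ± 6.25 CPM in control testis (SD, n = 2), and GF grafts were 2.21-fold lower (log2 fold change -1.15 ± 0.28, SE, edgeR adjusted p = 0.00941). That call rested on both control libraries and was lost without either. The log2 fold change was -1.21 without control 1 and -1.13 without control 2. FO grafts did not differ from control testis beyond the spread (log2 fold change 0.40 ± 0.29, SE, 95% interval -0.22 to 1.03, edgeR adjusted p = 0.379).

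KRT7, the other type II chain and a marker of many duct epithelia, lies on the same chromosome (17553192 to 17570582), and the RefSeq table gives it the biotype lncRNA. Whether its row counts the coding keratin transcript was not tested, and this holds for every KRT7 level, ratio and share. It had 23.1, 19.9, 81.8 and 74.7 CPM in the GF libraries, against 78.9, 33.7, 64.0 and 47.5 CPM in the FO libraries. The control libraries had 1.15 and 0.755 CPM, from 7 and 5 counts. The GF libraries fell into a low and a high pair, with GF 3 and GF 4 high, and together they spanned the whole FO range. All graft libraries were far above both control libraries.

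KRT7 averaged 49.9 ± 32.9 CPM in GF grafts and 56.0 ± 19.6 CPM in FO grafts (SD, n = 4 each). The difference did not pass (log2 fold change -0.17 ± 0.46, SE, 95% interval -1.18 to 0.84, edgeR adjusted p = 0.811). Without GF 3 and GF 4, which were also the libraries with the fewest counts, the log2 fold change was -1.39 with an edgeR adjusted p of 0.00346. These were the GF libraries highest in KRT7, and leaving them out was chosen after seeing the data. That call is therefore no separate support for a lower level. Against the 0.955 ± 0.282 CPM of control testis (SD, n = 2), KRT7 was 50.7-fold higher in GF grafts (95% interval 15.6 to 165, edgeR adjusted p = 3.31e-04). The log2 fold change of 5.66 became 4.45 without GF 3 and GF 4. In FO grafts KRT7 was 57.3-fold higher than in control testis (log2 fold change 5.84 ± 0.80, SE, edgeR adjusted p = 2.81e-04).

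KRT19, a type I chain of simple and ductal epithelia that lacks the tail domain of other keratins, lies on chromosome 12 (21115453 to 21119115). It had 61.1, 45.9, 73.5 and 89.5 CPM in the GF libraries, against 157, 91.6, 86.0 and 94.3 CPM in the FO libraries. The control libraries had 8.57 and 6.04 CPM. GF and FO grafts overlapped through GF 4 alone, which lay above FO 3, and all graft libraries were above both control libraries.

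KRT19 averaged 67.5 ± 18.5 CPM in GF grafts and 107 ± 33.3 CPM in FO grafts (SD, n = 4 each). The log2 fold change of -0.66 ± 0.28 (SE, 95% interval -1.28 to -0.05) had an edgeR adjusted p of 0.0946 and was not called. Without GF 3 and GF 4, the GF libraries highest in KRT19, it was -1.01 with an edgeR adjusted p of 0.00720. This choice was made after seeing the data, so that call is no separate support. Leaving out this pair brought the number of called genes of the set to 3, while calls over all genes rose to 5305 from 4205. Control testis averaged 7.31 ± 1.79 CPM (SD, n = 2). KRT19 was 9.19-fold higher in GF grafts than in control testis (log2 fold change 3.20 ± 0.40, SE, edgeR adjusted p = 1.63e-04). It was 14.6-fold higher in FO grafts than in control testis (log2 fold change 3.87 ± 0.41, SE, edgeR adjusted p = 5.30e-05).

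**Figure D2:**
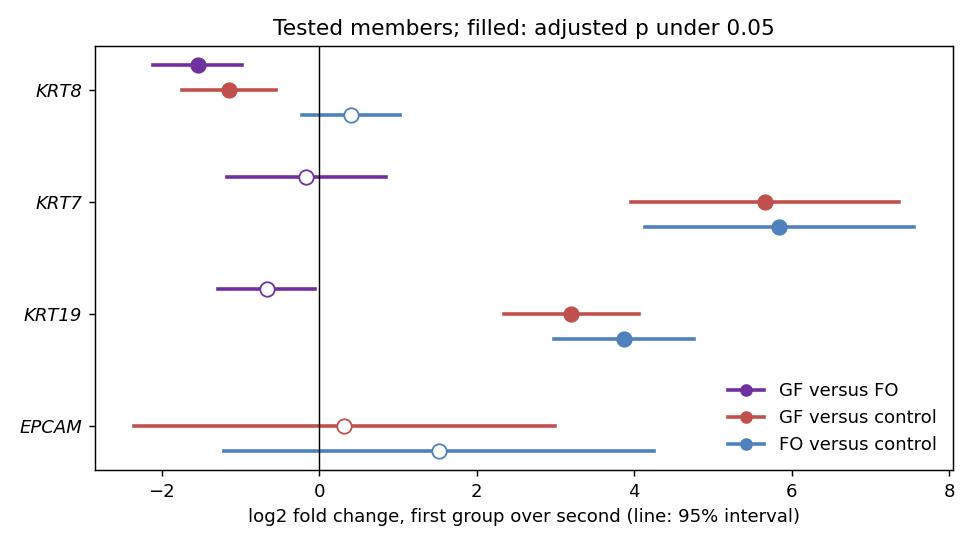
Log2 fold change (points) with its 95% interval (lines) of each tested gene in the 3 comparisons, with filled points where the edgeR adjusted p was under 0.05; EPCAM was not tested between GF and FO grafts. KRT8 lies left of 0 in GF versus FO (-1.54) and in GF versus control (-1.15), while KRT7 (5.66 and 5.84) and KRT19 (3.20 and 3.87) lie far to the right in both comparisons with control testis.

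The comparisons of GF and of FO grafts with control testis share the same 2 control libraries, so their values are given side by side and are not independent. In GF grafts against control testis, 4 genes were tested, 2 were higher and 1 lower. Of all 15877 genes tested, 25.8% were called, 14% higher and 11.8% lower. In FO grafts against control testis, 4 were tested and 2 were higher, while 18.7% of all genes tested were called, 8.12% higher and 10.6% lower. The groups did not overlap for 3 of the 4 genes in GF versus control (47.2% of all genes) and for 2 of the 4 in FO versus control (58.7% of all genes). The median log2 fold change was 1.76 in GF grafts and 2.70 in FO grafts against control testis, beside 0.03 and -0.04 over all genes tested. In control testis the order was KRT8, KRT19 and then KRT7 and KRT18, whose control ranges met. In FO grafts KRT8 and KRT19 were above KRT7 in each library, and in GF grafts the ranges of all 3 overlapped.

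KRT18 is the usual type I partner of KRT8 in simple epithelia and lies 37408 bases from KRT8 on chromosome 5 (18217686 to 18221432). Its row held 4, 10, 1 and 0 counts in the GF libraries, against 3, 7, 7 and 30 counts in the FO libraries and 6 and 10 counts in the control libraries. The groups overlapped, and FO 4 alone held most of the FO counts. For the GF library at 0, the 3 counts taken as the floor correspond to 1.04 CPM. KRT18 was too low to be tested. Summed over libraries, the ratio of GF to FO was 0.353 (exact 95% interval 0.183 to 0.642, for counting error alone, not for the spread between libraries), and 0.715 (0.332 to 1.52) without FO 4. With no filter on low counts, edgeR gave an adjusted p of 0.279 for GF versus FO. Whether the annotated end of KRT18 takes up the reads of its transcript was not tested.

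The levels of the pairing chains were set against each other within each library as log2 ratios of CPM, with 0.5 CPM added to each. KRT8 over KRT18 was 6.02 ± 1.20 in GF grafts and 6.35 ± 0.85 in FO grafts (SD, n = 4 each), a difference of -0.33 that did not pass an exact two-sided permutation test (p = 0.714, adjusted p = 0.714). With KRT18 at so few counts the added CPM bears on this ratio, and the difference was -0.88 with 2 CPM added (exact permutation p = 0.0857) and -1.16 without GF 3 and GF 4 (exact permutation p = 0.2). KRT7 over KRT19 was -1.38, -1.19, 0.15 and -0.26 in the GF libraries, against -0.99, -1.43, -0.42 and -0.98 in the FO libraries. The control libraries had -2.46 and -2.38. The graft groups overlapped, and both control libraries lay below all graft libraries. The difference between GF and FO grafts was 0.29 (exact two-sided permutation p = 0.543, adjusted p = 0.714), and the smallest p that 4 against 4 can give is 0.0286.

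The table held 36 rows named as keratins, 16 on chromosome 5 and 20 on chromosome 12. Of the 32 rows outside the set, 12 had no count in any library. The most abundant of the rest were KRT10, KRT80 and KRT222, with 3229, 669 and 457 counts over the 10 libraries, and they are named here after their values were seen. The summed keratin level was 263 ± 42.3 CPM in GF grafts and 496 ± 75.2 CPM in FO grafts (SD, n = 4 each), and 243 ± 6.20 CPM in control testis (SD, n = 2). Both control libraries lay within the GF range of 209 to 307 CPM, and the FO libraries lay above it.

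KRT8 made up 30.7%, 25.4%, 22.3% and 28.4% of keratin counts in the GF libraries, against 36.2%, 34.2%, 43.1% and 51.3% in the FO libraries. Its share was 63.3% and 64.6% in the control libraries. The 3 groups did not overlap. The difference between GF and FO grafts was -14.5 percentage points, and it did not pass after adjustment over the 3 measures of make-up (exact two-sided permutation p = 0.0286, the smallest possible, adjusted p = 0.0857). This share was chosen as a measure after the data were seen. KRT19 made up 21.9% to 29.2% in GF grafts, 17.8% to 26.9% in FO grafts and 2.44% to 3.59% in control testis. KRT7 made up 9.15% to 28.7% in GF grafts, 8.17% to 13.9% in FO grafts and 0.305% to 0.484% in control testis.

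**Figure D3:**
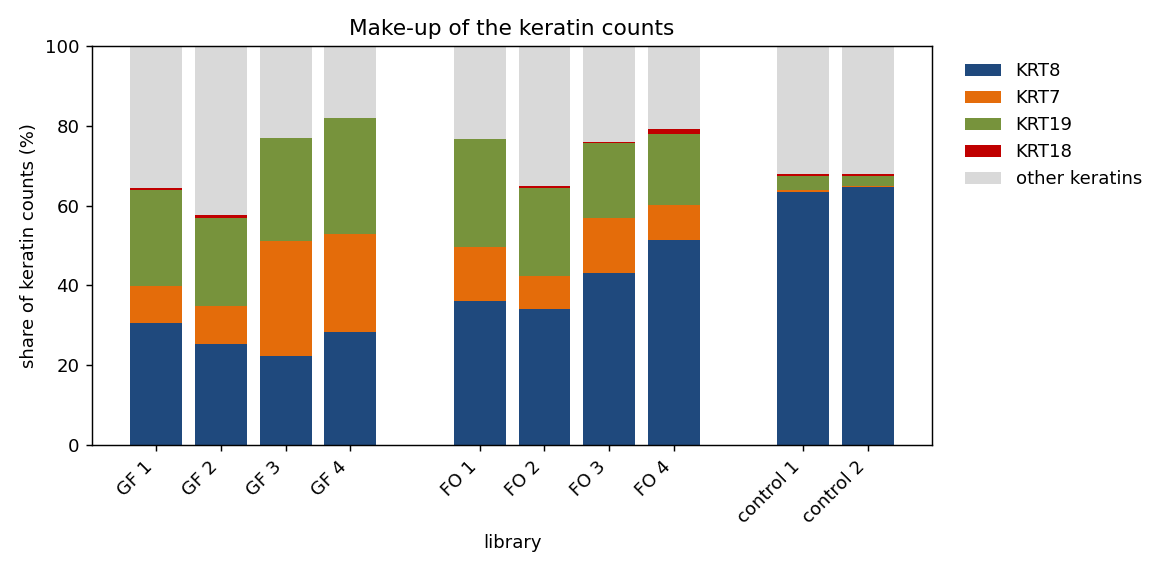
Share of all keratin counts in each library (stacked bars, %) taken by KRT8, KRT7, KRT19, KRT18 and all other keratin rows. KRT8 takes 22.3% to 30.7% in GF grafts, 34.2% to 51.3% in FO grafts and 63.3% to 64.6% in control testis, and KRT7 and KRT19 together are small in control testis alone.

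The epithelial surface genes were near 0. EPCAM, on chromosome 3 (93169800 to 93185221), had 7, 12, 0 and 0 counts in the GF libraries, against 6, 12, 4 and 20 counts in the FO libraries and 7 and 3 counts in the control libraries. The groups overlapped, and the GF libraries at 0 were those with the fewest counts. Their floor of 3 counts corresponds to 1.04 CPM in each. EPCAM did not pass the filter between GF and FO grafts, where its summed ratio was 0.50 (exact 95% counting interval 0.275 to 0.879), and 0.699 (0.358 to 1.35) without FO 4. With no filter, edgeR gave an adjusted p of 0.424. Against control testis it was tested and not called, in GF grafts (log2 fold change 0.32 ± 1.24, SE, edgeR adjusted p = 0.874) and in FO grafts (1.52 ± 1.27, SE, edgeR adjusted p = 0.452).

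MUC1, on chromosome 4 (94626317 to 94631194), had 2, 3, 0 and 0 counts in the GF libraries, against 5, 4, 2 and 7 counts in the FO libraries and 0 and 4 counts in the control libraries. The groups overlapped. The summed ratio of GF to FO was 0.307 (exact 95% counting interval 0.0891 to 0.858), or 0.368 (0.10 to 1.15) without FO 4, and the edgeR adjusted p with no filter was 0.321. PAX2, on chromosome 14 (111822334 to 111914950), had 2, 0, 0 and 0 counts in the GF libraries, against 1, 2, 1 and 0 counts in the FO libraries and 1 and 0 counts in the control libraries. A PAX2 difference was not detectable at this depth. None of the 7 genes overlaps another annotated gene.

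The other genes of simple epithelium and ducts were read from a list of 32 names, of which 31 had a row and 14 were tested between GF and FO grafts. None was higher and 5 were lower in GF grafts, or 35.7% of those tested beside 30.5% of all genes. Their median log2 fold change was -0.41, beside -0.02 over all genes. Not all went down. GRHL1, CLDN4, SPINT1, CLDN3 and ST14 had log2 fold changes of 1.87, 1.77, 0.86, 0.71 and 0.67, and none of these was called. The count of lower genes was 3 without FO 1, 2 without FO 2, 3 without FO 3 and 2 without FO 4, and 2 without FO 1 and GF 3. CRB3, a protein that sets apical polarity, had 1.71, 0.54, 0 and 0 CPM in the GF libraries, against 15.1, 13.5, 12.8 and 15.5 CPM in the FO libraries. The control libraries had 1.65 and 0.907 CPM, so that CRB3 was high in FO grafts alone. CRB3 passed the filter through the FO libraries alone, so its call is no separate support. Its fitted log2 fold change in GF relative to FO grafts was -4.41 ± 0.75 (SE), and it was -5.70 without GF 1 and -3.68 without GF 3 and GF 4.

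EHF, an epithelial ETS factor, averaged 2.70 ± 1.04 CPM in GF grafts and 10.1 ± 2.22 CPM in FO grafts (SD, n = 4 each), against 1.36 ± 0.64 CPM in control testis (SD, n = 2). Its log2 fold change between GF and FO grafts was -1.86 ± 0.48 (SE, edgeR adjusted p = 0.0128, and 0.0613 without FO 1 and GF 3). SPINT2, a protease inhibitor of epithelial membranes, averaged 35.5 ± 10.3 CPM in GF grafts and 72.6 ± 18.1 CPM in FO grafts (SD, n = 4 each). Its edgeR adjusted p of 0.0192 became 0.0710 without FO 1, 0.0547 without FO 2 and 0.0573 without FO 4, and 0.0592 without FO 1 and GF 3. MARVELD2, the tricellulin of tight junctions, averaged 43.1 ± 4.34 CPM in GF grafts and 74.0 ± 16.0 CPM in FO grafts (SD, n = 4 each). Its edgeR adjusted p of 0.0267 became 0.0521 without GF 1, 0.103 without FO 2, 0.0747 without FO 3 and 0.0642 without FO 4, and 0.0703 with scaling by total counts alone.

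Against control testis, 19 of these genes were tested in each kind of graft. In GF grafts 3 were higher and 2 lower, or 26.3% called beside 25.8% of all genes. In FO grafts 6 were higher and 1 lower, or 36.8% called beside 18.7% of all genes. The higher counts were 1 and 0 in GF grafts and 2 and 2 in FO grafts without control 1 and without control 2, and the GF count was 5 without GF 4. The median log2 fold change was 1.01 in GF grafts and 1.16 in FO grafts against control testis, beside 0.03 and -0.04 over all genes tested.

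A list of 30 genes of the Wolffian and Müllerian ducts, rete testis and epididymis had 28 rows, and 12 were tested between GF and FO grafts. In GF grafts 3 were higher and 3 lower, or 50% called beside 30.5% of all genes, with a median log2 fold change of -0.08. The higher count was 5 without GF 3 and GF 4 and 1 without FO 1 and GF 3. EMX2, a homeobox factor of the urogenital ducts in mouse, averaged 12.2 ± 0.932 CPM in GF grafts and 87.1 ± 24.9 CPM in FO grafts (SD, n = 4 each), against 3.29 ± 0.689 CPM in control testis (SD, n = 2). It fell by 2.83 ± 0.28 on the log2 scale in GF relative to FO grafts (SE, edgeR adjusted p = 9.79e-05). ESR1, the estrogen receptor, averaged 16.1 ± 2.54 CPM in GF grafts and 40.4 ± 7.92 CPM in FO grafts (SD, n = 4 each, log2 fold change -1.32, edgeR adjusted p = 0.00374).

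SLC9A3, a sodium and proton exchanger of the efferent ducts, had no count in any GF library, against 3.62, 2.83, 2.31 and 12.3 CPM in the FO libraries. Its counts were 0 in GF and 95 in FO grafts, a ratio of at most 0.0437 (upper end of the exact 95% counting interval). It passed the filter through the FO libraries alone, so its call is no separate support. The control libraries had 0.989 and 0.453 CPM. AQP1, a water channel found in efferent ducts and also in vessels, averaged 22.9 ± 6.52 CPM in GF grafts and 8.73 ± 1.65 CPM in FO grafts (SD, n = 4 each, log2 fold change 1.39, edgeR adjusted p = 0.00982). Epididymal LCN5, a secreted lipocalin, and CALB1, a calcium-binding protein, had no count in any library of the 3 groups.

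**Figure D4:**
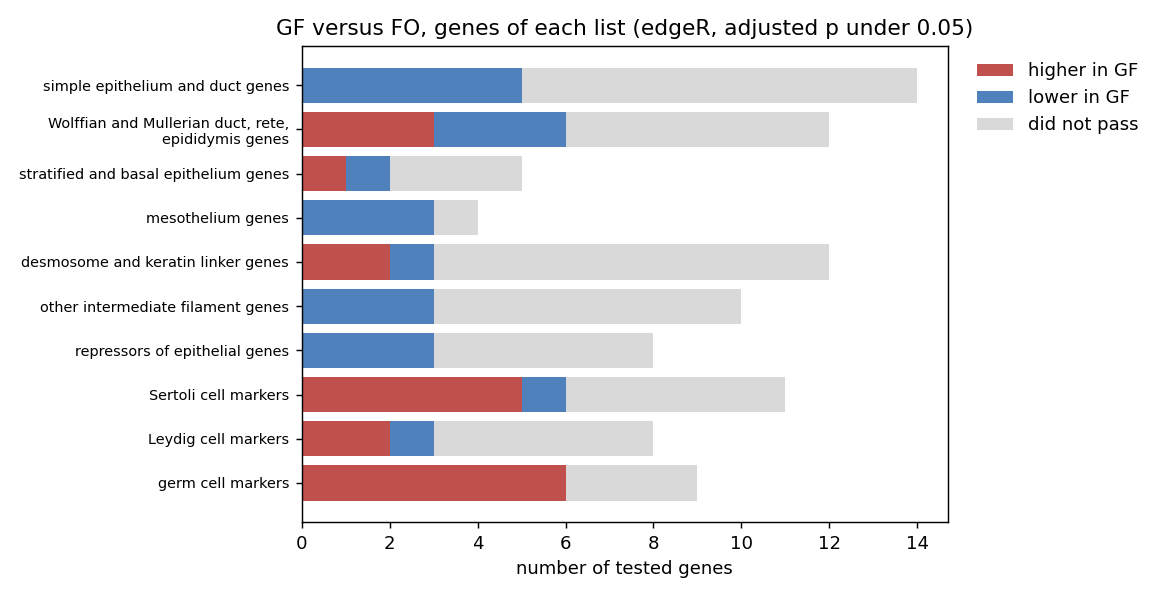
Number of tested genes of each list that were higher in GF grafts, lower in GF grafts, or did not pass between GF and FO grafts (stacked bars). The simple epithelium list has 5 lower and no higher genes of 14, and the germ cell list 6 higher and no lower of 9.

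Genes of stratified epithelium gave 1 higher and 1 lower of 5 tested, or 40% called beside 30.5% of all genes. TRIM29, a protein of basal epithelial cells, had 3.86, 3.25, 25.9 and 12.8 CPM in the GF libraries, against 0.279, 0.218, 0 and 0 CPM in the FO libraries and none in control testis. Its counts were 148 in GF and 2 in FO grafts, a ratio of 81.8 (exact 95% counting interval 22.2 to 681), and its fitted log2 fold change of 6.31 was 5.51 without GF 3 and 4.65 without GF 3 and GF 4. PKP1, a plakophilin of stratified epithelia, averaged 2.39 ± 2.23 CPM in GF grafts and 14.9 ± 3.94 CPM in FO grafts (SD, n = 4 each). Its log2 fold change of -2.59 (edgeR adjusted p = 0.0149) was -3.35 without GF 1, and the adjusted p was 0.0552 without FO 1 and GF 3. KRT10 (log2 fold change -0.52, edgeR adjusted p = 0.149) and LAMB3 (1.37, and -0.54 without GF 3 and GF 4, edgeR adjusted p = 0.240) did not pass.

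Of the proteins that link keratins to junctions, 12 were tested between GF and FO grafts. Of these 2 were higher and 1 lower, or 25% called beside 30.5% of all genes. The higher count was 0 without GF 3, FO 1 or FO 2 and 1 without GF 4, FO 3 or FO 4, and the lower count was 3 without GF 1 and 2 without GF 4. Without GF 3 and GF 4 there were 0 higher and 4 lower, and without FO 1 and GF 3 there were 0 higher and 1 lower. PKP2, the plakophilin of simple epithelia, averaged 22.1 ± 2.28 CPM in GF grafts and 58.4 ± 6.90 CPM in FO grafts (SD, n = 4 each, log2 fold change -1.40, edgeR adjusted p = 0.00124). The 2 higher genes were PLEC and DST. PLEC averaged 172 ± 97.8 CPM in GF grafts and 68.7 ± 12.6 CPM in FO grafts (SD, n = 4 each, log2 fold change 1.33, edgeR adjusted p = 0.0190). DST averaged 208 ± 70.3 and 124 ± 13.4 CPM (SD, log2 fold change 0.75, edgeR adjusted p = 0.0485). Without GF 3 and GF 4 their log2 fold changes were 0.42 and 0.24, and neither was called. Among other intermediate filament genes, 3 of 10 were lower, or 30%. Their lower count was 1 without GF 2, GF 3, FO 1 or FO 4, and also 1 without FO 1 and GF 3, but 6 without GF 3 and GF 4 together. VIM, the mesenchymal vimentin that Sertoli cells also use, averaged 648 ± 177 CPM in GF grafts and 1634 ± 177 CPM in FO grafts (SD, n = 4 each, log2 fold change -1.33, edgeR adjusted p = 0.00144). Of 8 genes for repressors of epithelial genes, 3 were lower, or 37.5%, and 1 was lower without FO 1, without FO 2, or without FO 1 and GF 3. TCF4, a helix-loop-helix factor, averaged 154 ± 23.8 CPM in GF grafts and 601 ± 106 CPM in FO grafts (SD, n = 4 each, log2 fold change -1.96, edgeR adjusted p = 1.70e-04).

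Markers of other cell types were read from the same fits. Of 10 mesothelium genes with a row, 4 were tested and 3 were lower in GF grafts, or 75% called beside 30.5% of all genes. The summed level of the 10 was 231 to 342 CPM in GF grafts, 544 to 856 CPM in FO grafts and 151 to 175 CPM in control testis. That sum is mostly WT1 and PODXL, which Sertoli cells or vessels also express. Other genes of the list went both ways. GPM6A, the remaining lower gene, averaged 29.8 ± 15.1 CPM in GF grafts and 68.5 ± 34.5 CPM in FO grafts (SD, n = 4 each). Its edgeR adjusted p of 0.0440 became 0.181 without FO 1, 0.227 without FO 1 and GF 3, and 0.00450 without GF 3 and GF 4. PRG4 and UPK1B, too low for the test, also had lower means in GF grafts, while BNC1, also too low, had a higher mean. PKHD1L1, also tested, averaged 17.1 ± 13.0 CPM in GF grafts and 8.86 ± 4.68 CPM in FO grafts (SD, n = 4 each, log2 fold change 0.96, edgeR adjusted p = 0.271), and was called higher without GF 3 and GF 4 (1.64, edgeR adjusted p = 0.00433). UPK3B, a uroplakin of mesothelium too low for the test, averaged 2.6 ± 2.78 CPM in GF grafts and 0.263 ± 0.395 CPM in FO grafts (SD, n = 4 each), and was at 0 in control testis. CALB2, the calretinin, was also too low, at 2.08 ± 3.91 CPM in GF grafts and 0.107 ± 0.123 CPM in FO grafts (SD, n = 4 each). LRRN4 was at 0 in all 3 groups. WT1 averaged 212 ± 44.8 CPM in GF grafts and 463 ± 73.5 CPM in FO grafts (SD, n = 4 each, log2 fold change -1.13, edgeR adjusted p = 0.00361). PODXL averaged 32.1 ± 6.42 CPM in GF grafts and 179 ± 31.2 CPM in FO grafts (SD, n = 4 each, log2 fold change -2.47, edgeR adjusted p = 9.79e-05).

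The 13 Sertoli cell markers with a row summed to 14923 to 45647 CPM in GF grafts, 4833 to 8777 CPM in FO grafts and 4886 to 5451 CPM in control testis. Of 11 tested between GF and FO grafts, 5 were higher and 1 lower, or 54.5% called beside 30.5% of all genes. INHBB was at 0 in all grafts. Most of the sum was CLU, the secreted protein clusterin, so the sum does not stand for each marker. AMH averaged 100, 12.9 and 484 CPM in GF grafts, FO grafts and control testis, while SOX9 averaged 483, 258 and 186 CPM. The higher count was 3 without GF 3 and GF 4 and 2 without FO 1 and GF 3, and the lower count was 2 without GF 4. Leydig cell markers had 2 higher and 1 lower of 8, or 37.5% called. They summed to 1725 to 3357 CPM in GF grafts, 518 to 3822 CPM in FO grafts and 14244 to 16838 CPM in control testis. Their higher count was 1 without GF 3, GF 4, FO 1, FO 2 or FO 4, and their lower count was 0 without GF 2, GF 3, GF 4, FO 2, FO 3 or FO 4. Without GF 3 and GF 4 there were 1 higher and 0 lower, and without FO 1 and GF 3 there were 1 higher and 1 lower. The GF and FO sums overlapped. Germ cell markers had 6 higher of 9, or 66.7% called. They summed to 667 to 1188 CPM in GF grafts, 161 to 282 CPM in FO grafts and 938 to 949 CPM in control testis. Most of the control sum was KIT, which averaged 713 CPM there and 73.4 CPM in GF grafts. Most of the FO sum was ZBTB16, KIT and UCHL1, which averaged 94.1, 70.1 and 55.0 CPM there. DDX4 averaged 66.1, 1.15 and 20.8 CPM in GF grafts, FO grafts and control testis, and PIWIL1 247, 0.975 and 6.58 CPM. Of 10 tested in GF grafts against control testis, 4 were higher and 2 lower, or 60% beside 25.8% of all genes. The part of these cell types in the keratin differences was not tested.

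Genes with a pattern like that of each keratin over the 10 libraries were found by the root mean square difference of log2 CPM, after each gene was centred on its own mean, among 9452 genes. IGFBP5, an insulin-like growth factor binding protein, was close to KRT8, at 0.168. IGFBP5 had 35.8, 20.0, 25.9 and 45.3 CPM in the GF libraries, against 98.4, 79.4, 102 and 119 CPM in the FO libraries and 64.0 and 66.0 CPM in the control libraries. Its GF libraries were, like those of KRT8, below all other libraries. The closest to KRT19 were ERBB4, a receptor tyrosine kinase, at 0.216, and CHRDL1, a BMP antagonist, at 0.329. ERBB4 had 50.9 to 58.4 CPM in GF grafts, 63.1 to 110 CPM in FO grafts and 3.78 to 5.94 CPM in control testis.

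The closest to KRT7 were PTGDS, the prostaglandin D synthase, at 0.471, and CRTAC1, a secreted matrix protein, at 0.585. PTGDS had 1219, 1746, 3401 and 4513 CPM in the GF libraries, against 1705 to 3303 CPM in the FO libraries and 49.0 and 56.4 CPM in the control libraries, and like KRT7 it was highest within the GF group in GF 3 and GF 4. The closest to EPCAM, at low counts, were PPIL3 at 0.461 and PMP22, a peripheral myelin protein, at 0.471. Among the tested genes of the set, the smallest difference was 0.820, between KRT7 and KRT19, and KRT8 differed from KRT7 by 2.34.

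**Figure D5:**
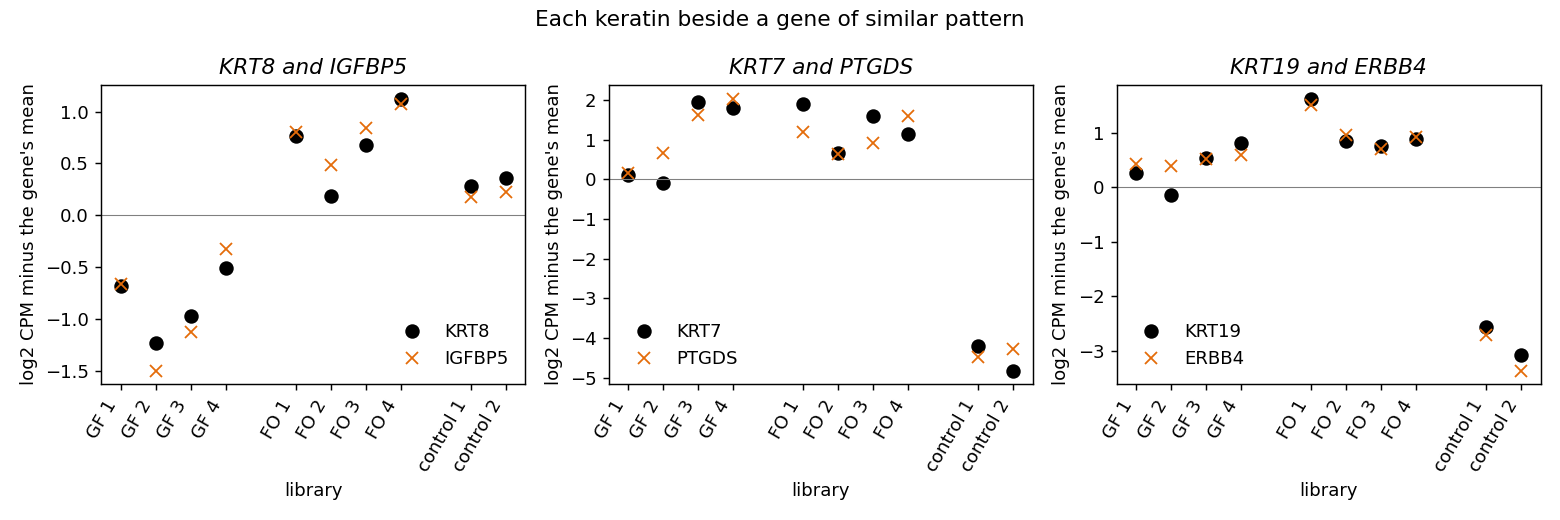
Log2 CPM minus the gene's mean over the 10 libraries, for KRT8, KRT7 and KRT19 (dots) and a gene of similar pattern for each (crosses), by library. IGFBP5 follows KRT8 with the 4 GF libraries lowest, while PTGDS with KRT7 and ERBB4 with KRT19 share the low level of both control libraries; the root mean square differences are 0.168, 0.471 and 0.216.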

How the data were processed

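PolyA RNA was measured with QuantSeq 3' libraries, per the labels. The deposited file gives unnormalized whole-number counts for each gene name in 10 libraries. The submitters' processing notes name Sscrofa11.1 and DESeq2 1.42.0. Which aligner and counter were run, and whether strand was used, is not given in the sources used here. Columns were matched to titles by letters and number, with F taken as FO. Columns not used numbered 0. Library totals were 2915534 to 7013911 counts, and intervals and floors (3 counts) cover counting error only.

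Genes were filtered with filterByExpr (minimum count 10), scaled with TMM and tested with edgeR 4.0.16 (quasi-likelihood, robust, R 4.3.3), and called at a Benjamini-Hochberg adjusted p under 0.05 over all genes tested. The fit of GF against FO held the 8 graft libraries, and 1 fit of all 10 served both comparisons with control. CPM uses the TMM factors of the 10-library fit. The SE is the log2 fold change over the square root of F. Likeness used genes of average log2 CPM of at least 3, with a prior count of 2. The pairing ratios used exact permutation tests. Tests were checked on simulated data. Alternatives were the DESeq2 1.42.0 Wald test, other scaling, no filter, no robust estimation, other libraries in the fit, a replicate block and leaving out libraries. Leaving out GF 3 and GF 4, or FO 1 and GF 3, was decided from earlier results, and leaving out FO 4 from summed ratios after seeing the data.

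The genes and the 10 lists (166 genes, 155 with a row) were chosen with earlier results of these data known. All genes of the set are named, and of each list up to 4 genes with the lowest p in GF versus FO, with the Sertoli, Leydig and germ cell lists given mainly by counts and sums. Genes listed as being at 0, UPK3B, CALB2, BNC1, PRG4, UPK1B, KIT, ZBTB16 and UCHL1 lie outside the rule. So do GRHL1, CLDN4, SPINT1, CLDN3, ST14 and the 5 muscle genes (ACTA1, MYH1, MYH2, MYLPF and TNNT3). For each tested gene of the set, up to 2 of the 2 genes most like it are named, and 1 result is not reported here. Positions come from the RefSeq table of Sscrofa11.1.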

Additional observations from a re-analysis of the deposited data

Results flagged for a closer look

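In 3 of 40 groups of 4 values examined, 1 library lay apart from the rest of its group by Dixon's criterion. Chance gives about 1 in 20 for continuous values, a rate that does not hold at counts near 0. KRT19 was at 157 CPM in FO 1, against 86.0 to 94.3 CPM in the other FO libraries. KRT18 was at 6.36 CPM in FO 4, against 0.836 to 1.52 CPM in the other FO libraries. PAX2 was at 0.429 CPM in GF 1, from 2 counts, against 0 in the other GF libraries. A lone value above 0 always lies apart by this criterion.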

How the results depend on the processing

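Of 294 alternative values for the genes of the set, their ratios and their counts, 275 kept their direction and their side of the threshold. KRT8 in GF versus FO did so throughout, at -1.68 to -1.36 with 1 library left out (edgeR adjusted p 0.00192 to 0.00773) and at -1.67 to -1.41 otherwise (adjusted p up to 0.0169). KRT8 in GF versus control was -1.26 to -1.05 with 1 library left out. KRT7 in GF versus FO was -0.53 to 0.10 with 1 library left out and changed sign without GF 1, GF 2 or FO 1. EPCAM in GF versus control was -0.48 to 1.06 and changed sign without GF 2 or control 2. The KRT8 to KRT18 ratio difference was -0.81 to 0.16 with 1 library left out, with a change of sign without GF 2. It was -0.88 with 2 CPM added in place of 0.5 (exact permutation p = 0.0857) and -1.16 without GF 3 and GF 4 (p = 0.2). Without GF 3 and GF 4, a choice made after seeing the data, KRT7 was -1.39 and KRT19 -1.01 in GF versus FO, both then called, so that 3 genes of the set were called. The libraries left out were the GF libraries highest in both genes. Calls over all genes rose to 5305 from 4205 in this setting. The KRT7 to KRT19 ratio difference then changed sign to -0.33, and LAMB3 to -0.54. The KRT8 share difference was -16.8 to -11.1 percentage points with 1 library left out (exact permutation p = 0.0571 without any 1 GF library and 0.0286 without any 1 FO library). It was -13.1 without GF 3 and GF 4 (exact permutation p = 0.133), -14.7 without FO 1 and GF 3 (p = 0.1) and -14.5 with sign flips within the replicate block (p = 0.125). The values 0.1 and 0.125 are the smallest p that those settings can give, so neither could pass the threshold. The causes were not tested.

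The replicate numbers did not establish pairs. Deviations of same-numbered GF and FO libraries correlated at 0.055, 0.218, 0.076 and 0.103, and those of other numbers at -0.148 to 0.108. GF 1 and GF 4 correlated best with other numbers. With the number as a replicate block, KRT8 kept its call in GF versus FO, 4335 genes were called in place of 4205, and KRT7 in GF versus control was 5.04 in place of 5.66. Scaling by total counts moved the share of higher calls in GF versus FO to 69.1% from 57.5%, and the median of all genes to 0.13. Calls in GF versus control numbered 2201 in place of 4091 with only those groups in the fit, and 1395 or 1141 without control 1 or control 2. In FO versus control they numbered 6600 in place of 2972, and 977 or 796 without control 1 or control 2, and 6510 without GF 3 and GF 4. In GF versus FO, 2312 were called without FO 1 and GF 3. Depth limits KRT18, EPCAM, MUC1 and PAX2, for which differences were not detectable.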
